A study of Drosophila melanogaster with 24 samples.

Results

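The RNAs of 10 voltage-gated ion channel genes were followed through an RNA immunoprecipitation experiment (RIP-seq) in heads of adult female Drosophila melanogaster. The genes were para, cac, Sh, Shab, Shal, Shaw, eag, slo, KCNQ and Ih, taken by symbol from a list of neuronal sodium, calcium and potassium channels. The choice was made with earlier results of these data known. All 10 were among the 17753 gene symbols of the count tables, and all 10 passed the filter on low counts that left 6147 genes to test. Heads of every genotype expressed GAL4 from the driver labelled elav, a pan-neuronal gene. The Nab2-FLAG genotype (elav>Nab2-FLAG) added FLAG-tagged Nab2, the Atx2-3xFLAG genotype (elav>Atx2-3xFLAG) added Atx2 with a triple FLAG tag, and the control (elav>Gal4) carried the driver alone. Each genotype had 4 lysates of 300 pooled heads, fixed with formaldehyde. Of each lysate, 80% went to anti-FLAG beads (RIP) and 20% was kept as Input, which gave 24 libraries in 6 groups of 4. The ages of the flies and the insertion sites of the transgenes are not given in the sources used here. With 1 genotype for each tagged protein, the tag and the genetic background cannot be told apart.

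Voltage-gated channels open or close when the membrane potential changes, and together they set how neurons fire and release transmitter. Sodium channels carry the upstroke of the action potential, presynaptic calcium channels trigger vesicle release, and potassium channels repolarise the membrane at different speeds. Nab2 is a zinc-finger protein that binds poly(A) RNA, and Atx2 is a cytoplasmic RNA-binding protein that acts in translation. The series asks which neuronal RNAs come down with each of them. In the fly, para encodes the principal voltage-gated sodium channel and cac the pore subunit of the presynaptic calcium channel. Sh, Shab, Shal and Shaw are the founding genes of the Kv channel subfamilies, eag founded the EAG family, slo encodes the large-conductance calcium-activated potassium channel, KCNQ an M-current channel, and Ih the hyperpolarization-activated channel gated by cyclic nucleotides. On Release 6 of the fly genome, the release that the submitters' notes call BDGP6, RefSeq places para on X at 16455027 to 16533096, cac on X at 11931280 to 11985087 and Sh on X at 17924307 to 18063247. Of the others, eag is on X, Shab and Shal are on 3L, Shaw is on 2L, slo is on 3R, and KCNQ and Ih are on 2R.

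Depth ran from 220894 to 2109561 counts per library, and the channel genes together took 0.0681% to 0.281% of them. CPM expresses a gene's counts per 1e+06 counts of tested genes, after TMM scaling. It is not divided by transcript length, so levels are compared between libraries and not between genes. The shallowest libraries were control RIP of lysate 3, with 4 (KCNQ) to 53 (Ih) counts per channel gene, and Nab2-FLAG RIP of lysate 3. Control lysate 3 was low in these genes on both sides. All 10 lay below their group mean in its RIP library, with a median log2 deviation of -0.46, and 8 of 10 did in its Input library, with a median of -0.27. The 10 neuron markers deviated there by a median of -0.17 in RIP and -0.24 in Input. Control lysate 3 also had the highest control values of summed fat body markers (119500 CPM in RIP and 142900 CPM in Input), of summed photoreceptor markers (77640 and 110300 CPM) and of the share of counts on mitochondrial genes (20% and 33.9%). Control lysate 4 lay at the other end, with 0 of 10 channel genes below the group mean in either library. As a check of the labels, Nab2 was higher in Nab2-FLAG than in control, with a log2 difference of 2.25 in Input and 2.08 in RIP (edgeR adjusted p = 6.5e-12 and 1.13e-12). Atx2 differed by 0.09 in Input and 0.21 in RIP between Atx2-3xFLAG and control (edgeR adjusted p = 0.674 and 0.129), so the level of Atx2 did not check the label Atx2-3xFLAG. The neuron marker elav was present in every library and no genotype difference in it passed the threshold.

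The first comparison asked whether channel RNAs associated with Nab2 or Atx2. An association is the log2 RIP-to-Input difference of the tagged genotype minus that of the control, and both associations share the 4 control lysates. No channel gene passed the threshold in either association, and the RIP-to-Input ratios of every gene overlapped between tagged and control lysates. For Nab2-FLAG, 0 of 10 genes were called by edgeR at an adjusted p below 0.05 (smallest adjusted p = 0.716), 0 had an unadjusted p below 0.05, and DESeq2 also called 0. Over all 6147 genes 0.0976% were called. For Atx2-3xFLAG, edgeR and DESeq2 called 0 of 10 as well (smallest edgeR adjusted p = 0.698), against 0.0488% of all genes, and 1 gene had an unadjusted p below 0.05. The median association of the channel genes was 0.02 with Nab2-FLAG and 0.06 with Atx2-3xFLAG, beside 0.01 and 0.02 over all genes. Groups of ratios that did not overlap were found for 0 of 10 channel genes in both associations, where 4.2% of all genes had them for Nab2-FLAG and 3.42% for Atx2-3xFLAG.

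The calcium channel gene cac had the largest positive association with Atx2-3xFLAG among the 10 and the second largest with Nab2-FLAG, without passing the threshold in either. Listed by lysate from 1 to 4, as throughout, its log2 RIP-to-Input ratio was 0.08, 0.31, 0.25 and 0.28 in Nab2-FLAG. In Atx2-3xFLAG it was 0.60, 0.56, 0.34 and -0.08, and in control 0.15, -0.23, -0.54 and -0.04. Atx2-3xFLAG lysates 1 to 3 lay above every control lysate, and Atx2-3xFLAG lysate 4 lay inside the control range. The association was 0.32 (SE 0.18, 95% interval -0.03 to 0.67, edgeR adjusted p = 0.745) with Nab2-FLAG and 0.45 (SE 0.17, 0.12 to 0.78, edgeR adjusted p = 0.698) with Atx2-3xFLAG. The authors' deposited table, which compares percent input between genotypes, lists a ratio over control of 1.30 for cac in Nab2-FLAG (Dunnett p = 0.1189) and of 1.43 in Atx2-3xFLAG (Dunnett p = 0.0299). In that deposited table cac was the only channel gene of the 10 with a Dunnett p under 0.05 for Atx2-3xFLAG, as 187 of its 5760 genes (3.25%) were, and no channel gene had one for Nab2-FLAG. Those p-values are not adjusted over genes.

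**Figure D1:**
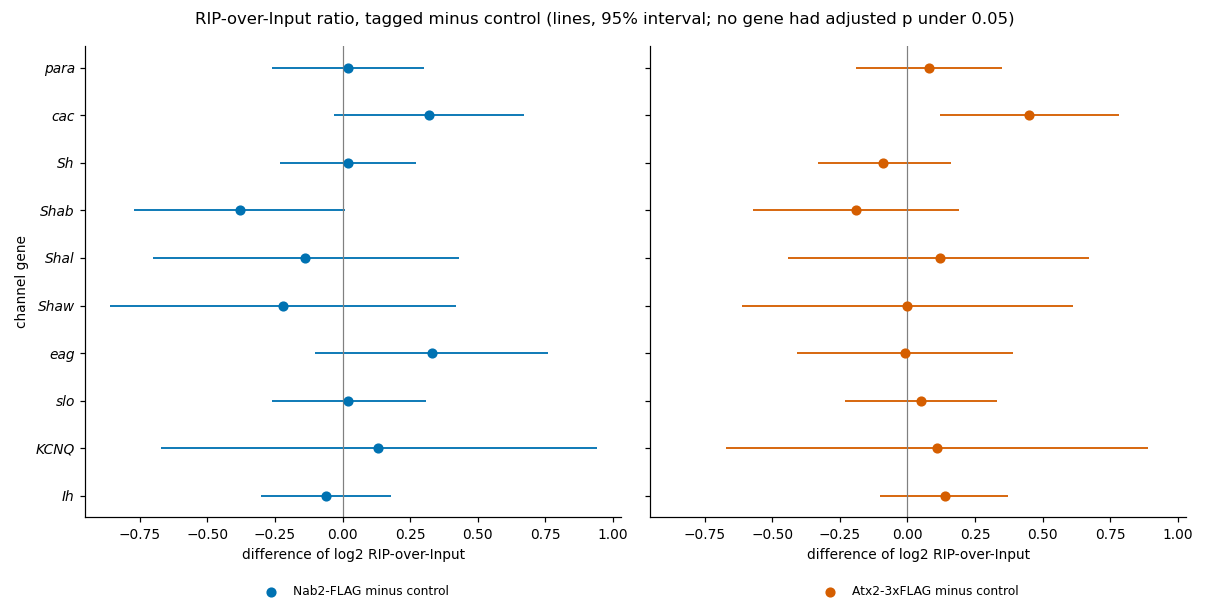
Association of each channel gene with Nab2-FLAG (left) and Atx2-3xFLAG (right), the log2 RIP-over-Input difference of tagged minus control heads (x axis); points are edgeR estimates from 4 lysates a genotype and lines 95% intervals. All 10 intervals for Nab2-FLAG and 9 of 10 for Atx2-3xFLAG include 0, the exception being cac at 0.12 to 0.78, which did not pass the threshold after adjustment over all genes.

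The sodium channel gene para and the potassium channel gene Sh had associations near 0, with standard errors of 0.12 to 0.14. The para ratios were 0.50, 0.57, -0.11 and 0.53 in Nab2-FLAG and 0.48, 0.53, 0.67 and 0.28 in Atx2-3xFLAG, against 0.62, 0.23, 0.44 and 0.38 in control. Nab2-FLAG lysate 3 was the single lysate below 0 and the other lysates of all genotypes mixed. The association of para was 0.02 with Nab2-FLAG (95% interval -0.26 to 0.30) and 0.08 with Atx2-3xFLAG (-0.19 to 0.35). For Sh, the founding Shaker channel, the ratio was 0.19, 0.56, 0.28 and 0.30 in Nab2-FLAG and 0.26, 0.32, 0.33 and 0.02 in Atx2-3xFLAG, against 0.34, 0.39, 0.25 and 0.25 in control. All 12 Sh ratios were above 0. Its association was 0.02 (-0.23 to 0.27) with Nab2-FLAG and -0.09 (-0.33 to 0.16) with Atx2-3xFLAG.

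Shab, a delayed-rectifier gene, had the most negative association. Its ratio was 0.42, 0.34, -0.24 and 0.49 in Nab2-FLAG and 0.45, 0.66, 0.67 and 0.27 in Atx2-3xFLAG, against 0.81, 0.71, 0.16 and 0.76 in control. Lysate 3, the shallowest RIP of its genotype, was lowest in both Nab2-FLAG and control. The association was -0.38 (SE 0.20, 95% interval -0.77 to 0.01) with Nab2-FLAG and -0.19 (SE 0.19, -0.57 to 0.19) with Atx2-3xFLAG. For eag the ratio was 0.05, 0.57, 0.43 and 0.69 in Nab2-FLAG and -0.23, 0.36, 0.17 and -0.08 in Atx2-3xFLAG, against -0.03, 0.21, 0.39 and -0.09 in control. Nab2-FLAG lysates 2 to 4 lay above every control lysate and lysate 1 did not. The association of eag was 0.33 with Nab2-FLAG (SE 0.22, -0.10 to 0.76) and -0.01 with Atx2-3xFLAG (SE 0.20, -0.41 to 0.39).

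The remaining potassium channel genes had associations between -0.22 and 0.13. Those of slo were 0.02 (SE 0.15) with Nab2-FLAG and 0.05 (SE 0.14) with Atx2-3xFLAG. The A-type channel gene Shal had -0.14 (SE 0.29) and 0.12 (SE 0.28), and Shaw -0.22 (SE 0.33) and 0.00 (SE 0.31). KCNQ, with the fewest counts, had 0.13 (SE 0.41, 95% interval -0.67 to 0.94) and 0.11 (SE 0.40, -0.67 to 0.89). All these intervals include 0, and that of KCNQ is the widest. The ratio of Ih was 0.10, 0.13, 0.12 and 0.05 in Nab2-FLAG and 0.37, 0.33, 0.16 and 0.34 in Atx2-3xFLAG, against 0.32, 0.19, -0.02 and 0.08 in control. Ih ratios of Nab2-FLAG varied least. The Ih association was -0.06 (SE 0.12) with Nab2-FLAG and 0.14 (SE 0.12) with Atx2-3xFLAG.

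Set directly against each other, the Nab2-FLAG and Atx2-3xFLAG associations differed for 0 of 10 channel genes by edgeR and by DESeq2, with 0 unadjusted p under 0.05, as 0% of all genes were called. The difference, Nab2-FLAG minus Atx2-3xFLAG, ranged from -0.26 for Shal to 0.34 for eag. Every Nab2-FLAG ratio of Ih lay below every Atx2-3xFLAG ratio, with a difference of -0.20 (SE 0.12, 95% interval -0.43 to 0.03, edgeR adjusted p = 1). Ih was the single channel gene of 10 without overlap here, where 2.55% of all genes had none.

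**Figure D2:**
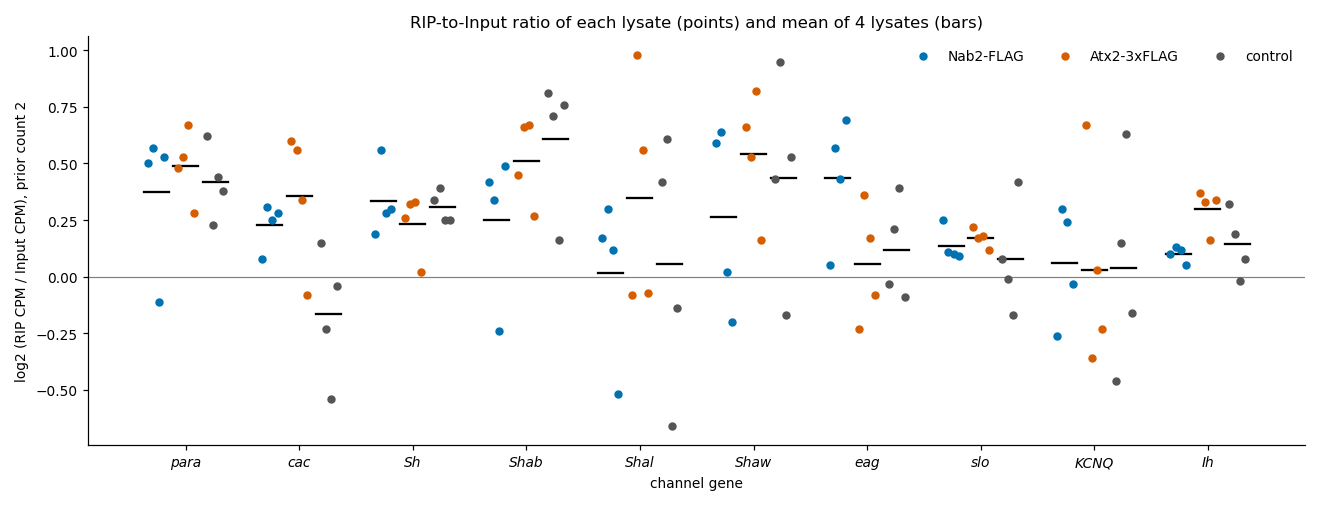
Log2 ratio of RIP CPM to Input CPM (y axis) of each channel gene (x axis) in each lysate; points are lysates, coloured by genotype, and bars the mean of 4 lysates. Control ratios of cac sit between -0.54 and 0.15, while its Atx2-3xFLAG ratios sit between -0.08 and 0.60, and the 12 ratios of Sh are all above 0.

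Some channel RNAs had higher CPM in RIP than in Input, in the driver-only control as well as in the tagged genotypes. CPM is a share of a library, so this does not measure how much of an RNA was recovered. The RIP-to-Input log2 difference was above 0 for 10 of 10 genes in Nab2-FLAG, 10 of 10 in Atx2-3xFLAG and 8 of 10 in control. Its median was 0.27, 0.30 and 0.17, beside -0.01, 0 and -0.01 over all genes. Genes higher in RIP at the threshold numbered 2 of 10 in Nab2-FLAG (3.42% of all genes), 5 of 10 in Atx2-3xFLAG (4%) and 3 of 10 in control (3.01%). No channel gene was lower. Without the lysate term in the fit, the calls numbered 0, 1 and 1. With library size as the only scaling they numbered 8, 9 and 8, in a setting that moved the median of all genes to 0.37, 0.37 and 0.39. RIP and Input libraries were pooled for sequencing apart, so pool and immunoprecipitation cannot be told apart within a genotype. Mitochondrial genes took 24.8% to 33.9% of counts in Input libraries and 14.4% to 20% in RIP libraries. The part of this in the differences was not tested.

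Of the 10, para was called in all 3 genotypes. It had 321, 270, 179 and 252 CPM in Nab2-FLAG RIP against 226, 181, 194 and 174 CPM in the Input of those lysates. Atx2-3xFLAG RIP held 429, 300, 266 and 301 CPM, against 306, 206, 167 and 248 CPM in Input. Control RIP held 236, 236, 198 and 303 CPM, against 153, 201, 145 and 232 CPM in Input. RIP exceeded Input in 11 of 12 lysates, all but Nab2-FLAG lysate 3. The log2 difference was 0.43 (SE 0.10, edgeR adjusted p = 0.00165) in Nab2-FLAG, 0.49 (SE 0.09, edgeR adjusted p = 5.45e-05) in Atx2-3xFLAG and 0.41 (SE 0.10, edgeR adjusted p = 0.00483) in control. The call was lost without Nab2-FLAG lysate 2 (0.37, edgeR adjusted p = 0.0587) and without control lysate 1 (0.34, edgeR adjusted p = 0.103), and it held without any 1 Atx2-3xFLAG lysate. Without the lysate term in the fit, para was called in no genotype (edgeR adjusted p = 0.23 in Nab2-FLAG, 0.214 in Atx2-3xFLAG and 0.26 in control).

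Shab, Sh, Shaw, cac and Ih made up the other calls. Shab had 124, 98.2, 72.4 and 94.5 CPM in Nab2-FLAG RIP and 92.1, 77.4, 86.0 and 66.6 CPM in Nab2-FLAG Input. Atx2-3xFLAG had 136, 121, 111 and 108 CPM of Shab in RIP and 99.2, 75.5, 68.9 and 89.2 CPM in Input. Control had 115, 118, 72.3 and 134 CPM of Shab in RIP and 64.9, 71.1, 64.5 and 77.9 CPM in Input. RIP and Input of Shab did not overlap in Atx2-3xFLAG, and in control lysate 3 alone had a RIP value within the Input range. The difference was 0.32 (edgeR adjusted p = 0.142) in Nab2-FLAG. It was 0.51 (SE 0.12, edgeR adjusted p = 0.00286) in Atx2-3xFLAG, lost without Atx2-3xFLAG lysate 3 (0.43, edgeR adjusted p = 0.0808), and 0.70 (SE 0.15, edgeR adjusted p = 0.000424) in control, which held without any 1 control lysate.

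Sh was higher in RIP by 0.34 in Nab2-FLAG (SE 0.09, edgeR adjusted p = 0.00517) and by 0.32 in control (SE 0.09, edgeR adjusted p = 0.0198), and differed by 0.23 (edgeR adjusted p = 0.0606) in Atx2-3xFLAG. In Nab2-FLAG this was lost without lysate 2 (0.25, edgeR adjusted p = 0.188). In control it was lost without lysate 1, 2 or 4 (edgeR adjusted p = 0.101, 0.143 and 0.0529), and in Atx2-3xFLAG it was gained without lysate 4 (0.30, edgeR adjusted p = 0.0261). The differences of cac (0.35), Shaw (0.57) and Ih (0.30) passed the threshold in Atx2-3xFLAG, with edgeR adjusted p = 0.0297, 0.0422 and 0.00819. Those of cac and Shaw were lost without Atx2-3xFLAG lysate 1, 2 or 3 (edgeR adjusted p from 0.15 to 0.248 for cac and from 0.133 to 0.283 for Shaw). That of Ih was lost without lysate 1 or 2 (edgeR adjusted p = 0.054 and 0.0848). Shal, slo and KCNQ passed in no genotype, with log2 differences from -0.09 to 0.30, and eag differed by 0.39 in Nab2-FLAG (edgeR adjusted p = 0.0992). Neuron markers were also higher in RIP, 6, 5 and 2 of 10 in Nab2-FLAG, Atx2-3xFLAG and control. Muscle markers were higher too, 3, 2 and 1 of 7 tested. Of 8 glia markers 0 were called in either tagged genotype, and in control 1 was higher and 1 lower. Photoreceptor markers were lower in RIP, 7, 8 and 6 of 8, and fat body markers, 3 of 6 in each genotype. Over all 6147 genes, 271, 231 and 272 were lower. The part of these lists in the channel differences was not tested.

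Within a pool, tagged heads were then compared with control heads, which both tagged genotypes share. Since the heads are mixtures, more cells of a type and more RNA per cell cannot be told apart. Sh was higher than control in both tagged genotypes and both pools, Ih was higher in Atx2-3xFLAG in both pools, and cac was higher in Atx2-3xFLAG RIP. No channel gene was lower at the threshold. In Input, 1 of 10 genes was higher in Nab2-FLAG (7.35% of all genes) and 2 of 10 in Atx2-3xFLAG (8.95%). In RIP, 1 of 10 was higher in Nab2-FLAG (11.1%) and 3 of 10 in Atx2-3xFLAG (13.5%). The shares in Nab2-FLAG are near the background and those in Atx2-3xFLAG are above it, an excess that was not tested. The median log2 difference over the channel genes was 0.15 in Nab2-FLAG and 0.24 in Atx2-3xFLAG Input, and 0.09 and 0.27 in RIP, beside -0.02, -0.01, 0 and 0.01 over all genes.

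**Figure D3:**
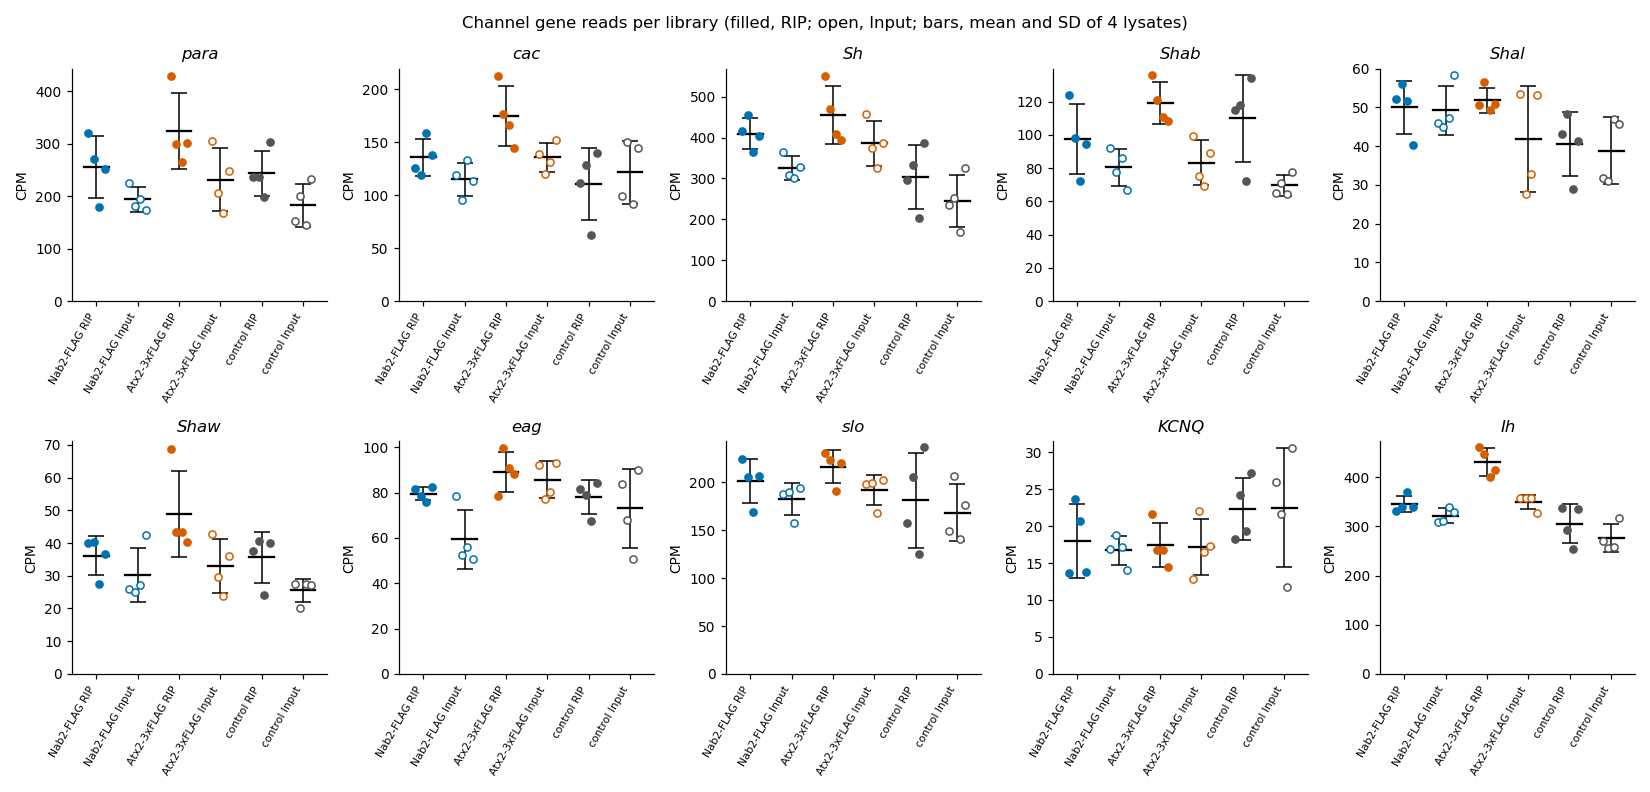
CPM (y axis) of each channel gene per library in 6 groups; filled points are RIP and open points Input libraries, and bars the mean and SD of 4 lysates. The Atx2-3xFLAG Input libraries of Sh, at 326 to 459 CPM, sit above the control Input libraries at 170 to 325 CPM, and the Atx2-3xFLAG RIP libraries of Ih, at 400 to 462 CPM, above all other libraries of that gene.

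In Input, Sh had 365, 309, 300 and 327 CPM in Nab2-FLAG heads and 459, 374, 326 and 387 CPM in Atx2-3xFLAG heads, against 234, 252, 170 and 325 CPM in control. Every Atx2-3xFLAG library lay above every control library, though Atx2-3xFLAG lysate 3 was next to control lysate 4, and control lysate 4 overlapped Nab2-FLAG. In RIP, Sh had 417, 455, 365 and 403 CPM in Nab2-FLAG heads and 550, 469, 409 and 393 CPM in Atx2-3xFLAG heads, against 296, 332, 202 and 388 CPM in control. The order was the same, with control lysate 4 again closest to the tagged libraries. In Atx2-3xFLAG, Sh was higher by a log2 difference of 0.65 in Input (SE 0.13, 1.57-fold, edgeR adjusted p = 0.000492) and 0.50 in RIP (SE 0.13, 1.41-fold, edgeR adjusted p = 0.00375), and both calls held in all 15 alternatives. In Nab2-FLAG it was higher by 0.40 in Input (SE 0.14, edgeR adjusted p = 0.0473) and 0.37 in RIP (SE 0.13, edgeR adjusted p = 0.0386). Those calls were lost in both pools without control lysate 1, 2 or 3 and without Nab2-FLAG lysate 1, 2 or 4 (edgeR adjusted p from 0.0654 to 0.245 in Input and from 0.0622 to 0.124 in RIP), and by DESeq2 (adjusted p = 0.0981 in Input and 0.0575 in RIP). Over all 15 alternatives the Input call of Sh in Nab2-FLAG held in 4 and the RIP call in 7. Sh has long introns, and 1 tested gene lies within its span, CG6867, at a mean of 8.9 CPM against 245 CPM of Sh in control Input.

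Ih, the pacemaker-type channel, had 309, 310, 340 and 329 CPM in Nab2-FLAG Input, 357, 357, 357 and 328 CPM in Atx2-3xFLAG Input, and 271, 257, 258 and 317 CPM in control Input. Atx2-3xFLAG lay wholly above control, while Nab2-FLAG overlapped both. In RIP, Ih had 332, 339, 369 and 340 CPM in Nab2-FLAG heads and 462, 448, 400 and 415 CPM in Atx2-3xFLAG heads, against 338, 293, 255 and 335 CPM in control. Atx2-3xFLAG was above all other RIP libraries. The difference between Atx2-3xFLAG and control was 0.34 in Input (SE 0.11, 1.27-fold, edgeR adjusted p = 0.0197) and 0.46 in RIP (SE 0.10, 1.38-fold, edgeR adjusted p = 0.000416). The RIP call held in all 15 alternatives, and the Input call was lost without control lysate 1, 2 or 3 or Atx2-3xFLAG lysate 3 (edgeR adjusted p from 0.0555 to 0.0788). In Nab2-FLAG the differences were 0.22 in Input and 0.13 in RIP (edgeR adjusted p = 0.208 and 0.403).

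The calcium channel gene cac had 126, 119, 159 and 138 CPM in Nab2-FLAG RIP, 212, 177, 166 and 144 CPM in Atx2-3xFLAG RIP, and 111, 128, 62.6 and 140 CPM in control RIP. Atx2-3xFLAG lay above control throughout, and control lysate 3, with 13 counts of cac, was the lowest. In Input, cac had 119, 95.2, 133 and 113 CPM in Nab2-FLAG heads and 139, 120, 131 and 152 CPM in Atx2-3xFLAG heads, against 99.5, 150, 91.9 and 144 CPM in control. The Input groups overlapped. The Atx2-3xFLAG difference was 0.51 in RIP (SE 0.13, 1.42-fold, edgeR adjusted p = 0.00444), which held in all 15 alternatives, and 0.16 in Input (SE 0.15, edgeR adjusted p = 0.544). Being called in RIP and not in Input is not a difference between the pools. That difference is the association given above, which did not pass. In Nab2-FLAG cac differed by 0.12 in RIP and -0.09 in Input (edgeR adjusted p = 0.595 and 0.802).

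The remaining channel genes passed in neither pool. In para, Atx2-3xFLAG differed from control by 0.35 in RIP and 0.35 in Input (SE 0.17 in each, edgeR adjusted p = 0.152 and 0.176), and Nab2-FLAG by 0.08 and 0.09. The Input difference of para in Atx2-3xFLAG passed without control lysate 4 (0.48, edgeR adjusted p = 0.0329) or Atx2-3xFLAG lysate 3 (0.48, edgeR adjusted p = 0.0258). Shab, Shal, Shaw, eag and slo differed by -0.19 to 0.28 in RIP and by -0.29 to 0.38 in Input over both tagged genotypes. Shal had 50.6, 56.6, 49.4 and 50.8 CPM in Atx2-3xFLAG RIP and 43.1, 48.4, 28.9 and 41.4 CPM in control RIP, groups that did not overlap (difference 0.26, edgeR adjusted p = 0.249). With Shal, 4 of 10 channel genes had no overlap between Atx2-3xFLAG and control in RIP, where 22.9% of all genes had none, and 2 of 10 in Input, where 17.1% had none. Between Nab2-FLAG and control 0 of 10 had none in either pool, beside 18.6% of all genes in RIP and 14.9% in Input.

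KCNQ was the single channel gene of the 10 with a value below control in all 4 comparisons of tagged heads, without passing in any. It had 13.7, 23.6, 20.7 and 13.8 CPM in Nab2-FLAG RIP, 21.7, 16.8, 16.8 and 14.5 CPM in Atx2-3xFLAG RIP, and 18.3, 24.2, 19.3 and 27.2 CPM in control RIP. The 3 groups overlapped. The differences were -0.51 for Nab2-FLAG and -0.48 for Atx2-3xFLAG in RIP, and -0.42 and -0.45 in Input, with edgeR adjusted p from 0.155 to 0.45. These values rest on 4 to 40 counts a library. KCNQ also shares its span with mlt, at a mean of 84.9 CPM in control Input against 22.5 CPM of KCNQ, and whether counting used strand is not given in the sources used here, so reads may be split between the pair.

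**Figure D4:**
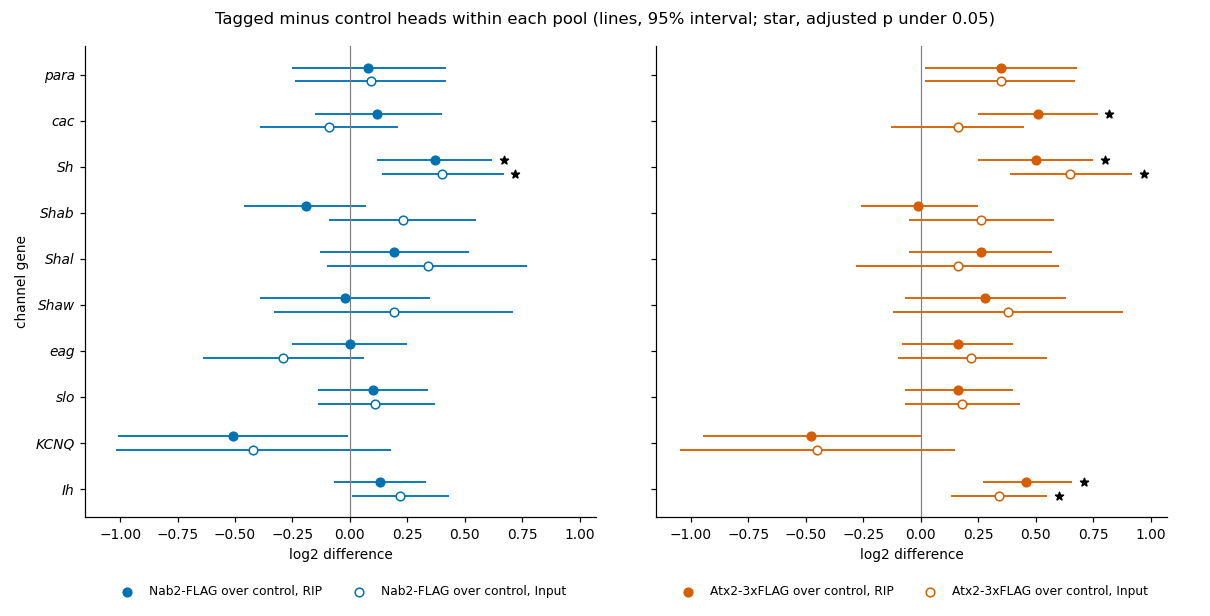
Log2 difference of tagged minus control heads (x axis) for each channel gene (y axis), Nab2-FLAG at left and Atx2-3xFLAG at right; filled points are RIP, open points Input, lines 95% intervals, and a star marks an edgeR adjusted p under 0.05. Sh has a star in all 4 comparisons, Ih in both Atx2-3xFLAG comparisons and cac in Atx2-3xFLAG RIP, while KCNQ lies at -0.51 to -0.42.

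Markers of cell types in the head moved between the genotypes beside the channel genes. Of the 10 neuron markers, 6 were higher and 1 was lower in Atx2-3xFLAG Input than in control Input, with a median difference of 0.37. In RIP 6 were higher and 1 was lower (median 0.42). In Nab2-FLAG, 2 were higher and 1 was lower in Input (median 0.15), and 3 were higher and 2 lower in RIP (median 0.25). Gad1, the enzyme of GABA synthesis, differed by 0.99 and Syx1A, a synaptic membrane protein, by 0.65 in Atx2-3xFLAG Input (edgeR adjusted p = 2.34e-05 and 0.00304). VGlut, the vesicular glutamate transporter, was lower, with a log2 difference of -0.49. The summed neuron markers came to 2250 to 2490 CPM in Nab2-FLAG Input, 2700 to 3070 CPM in Atx2-3xFLAG Input and 2260 to 2840 CPM in control Input.

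Fat body markers summed to 98400 to 121000 CPM in Nab2-FLAG Input, 70200 to 77200 CPM in Atx2-3xFLAG Input and 106000 to 143000 CPM in control Input, and to 88600 to 92800 CPM, 54100 to 72500 CPM and 84900 to 120000 CPM in RIP. Atx2-3xFLAG lay below control in both pools. Of the 6 genes, 1 was higher and 2 were lower in Atx2-3xFLAG Input (median -0.27), and 1 was higher and 3 were lower in Atx2-3xFLAG RIP (median -0.42). Yp1, a yolk protein gene, was lower there, with log2 differences of -0.96 in Input and -0.98 in RIP, while Lsp2, a larval serum protein gene, was higher by 1.42 and 1.38. In Nab2-FLAG 2 were higher in Input (median 0.28), and 2 were higher and 1 was lower in RIP (median 0.20). Glia markers numbered 3 of 8 higher in Nab2-FLAG Input (median 0.29) and 0 of 8 in Atx2-3xFLAG Input (median 0.20). In RIP 4 were higher and 1 was lower in Nab2-FLAG (median 0.32), and 2 were higher and 1 was lower in Atx2-3xFLAG (median 0.16).

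Muscle markers were higher in both tagged genotypes, 6 of 7 tested in Nab2-FLAG Input (median 0.80) and 5 of 7 in Atx2-3xFLAG Input (median 0.65). They summed to 5390 to 6880 CPM in Nab2-FLAG Input, 5290 to 5910 CPM in Atx2-3xFLAG Input and 3120 to 4110 CPM in control Input, with no overlap of tagged and control. Mlc2, a myosin light chain, differed by 1.40 in Nab2-FLAG and 1.33 in Atx2-3xFLAG. Fly muscle expresses Sh and other channels of this list too. Photoreceptor markers were lower, 4 of 8 in each tagged Input with 1 of 8 higher, and summed to 52700 to 64900 CPM in Nab2-FLAG Input, 52500 to 63400 CPM in Atx2-3xFLAG Input and 77900 to 110000 CPM in control Input. No marker gene of these lists was at 0 in any group. The part of neuron, glia, fat body, muscle and photoreceptor RNA in the differences of Sh, Ih and cac was not tested.

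**Figure D5:**
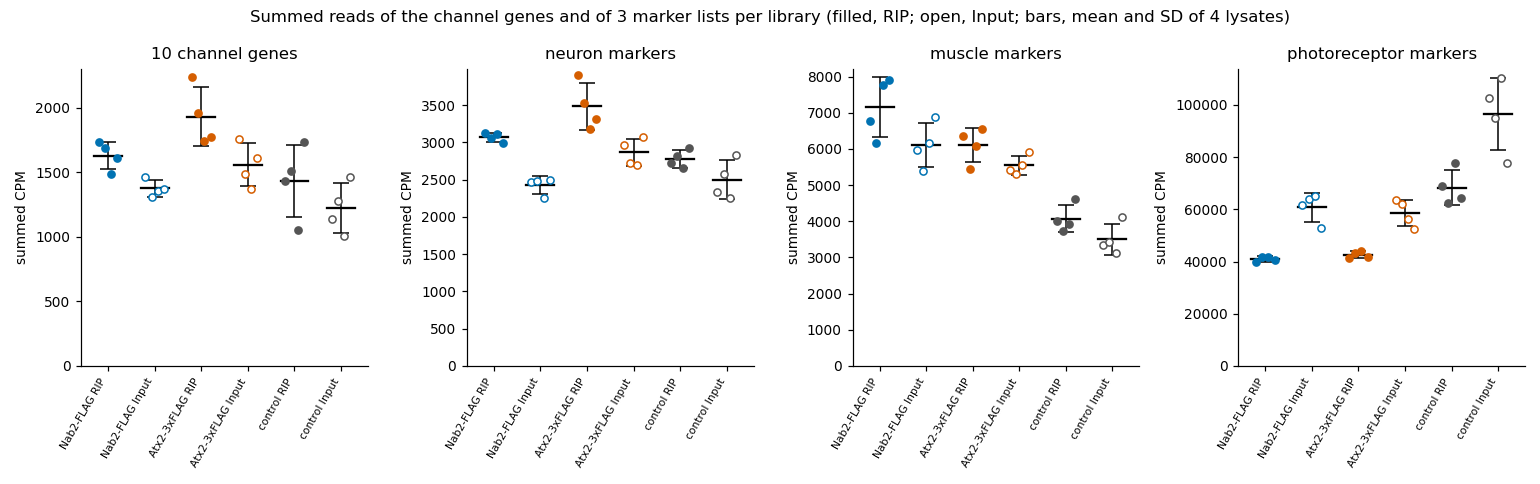
Summed CPM (y axis) of the 10 channel genes and of the neuron, muscle and photoreceptor markers per library in 6 groups; filled points are RIP and open points Input libraries, bars the mean and SD of 4 lysates. Channel genes sum to 1740 to 2240 CPM in Atx2-3xFLAG RIP, and muscle markers of all tagged libraries sit above those of all control libraries.

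Between the tagged genotypes, Ih was lower in Nab2-FLAG RIP than in Atx2-3xFLAG RIP and no other channel gene passed the threshold in either pool. In RIP all 10 log2 differences of Nab2-FLAG minus Atx2-3xFLAG were below 0 (median -0.17, beside -0.01 over all genes). In Input the shift was similar, with 2 of 10 above 0 (median -0.16, beside 0 over all genes). Fat body markers were higher in Nab2-FLAG than in Atx2-3xFLAG, 5 of 6 in RIP (median 0.54) and 4 of 6 in Input (median 0.61), and their RIP sums given above did not overlap. Of all 6147 genes, 135 were higher in RIP and 160 in Input. Of the 10 neuron markers 1 was lower in RIP (median -0.11), and 0 were called in Input (median -0.22). The log2 difference was above 0 for 1 of these 10 markers in each pool. The part of these markers in the channel differences was not tested. The log2 difference of Ih was -0.33 (SE 0.10, edgeR adjusted p = 0.0382), so that 1 of 10 genes was lower, as were 2.08% of all genes. Ih and Shaw had no overlap between the genotypes in RIP, where 11.1% of all genes had none. The Ih call was lost without Nab2-FLAG lysate 1, 2 or 4 or Atx2-3xFLAG lysate 1, 2 or 3 (edgeR adjusted p from 0.0748 to 0.184). The difference of cac in RIP was -0.39 (SE 0.13, edgeR adjusted p = 0.088), and it passed without Atx2-3xFLAG lysate 4 (-0.48, edgeR adjusted p = 0.0215). In Input, 0 of 10 channel genes were called by edgeR and by DESeq2, with 1 unadjusted p under 0.05, against 4.28% of all genes, and 0 of 10 had no overlap, against 9.68%. The largest Input difference was that of eag, with 78.7, 52.3, 55.9 and 50.5 CPM in Nab2-FLAG and 92.2, 77.4, 80.2 and 93.2 CPM in Atx2-3xFLAG. Nab2-FLAG lysate 1 fell inside the Atx2-3xFLAG range. The eag difference was -0.52 (SE 0.17, edgeR adjusted p = 0.065), and it passed without Nab2-FLAG lysate 1 (-0.71, edgeR adjusted p = 0.0193).

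Partners and relatives of the channels were counted as lists. No gene of the sodium, calcium or potassium channel lists passed in either association. Of 8 tested sodium channel partners and relatives, NaCP60E, a sodium-channel-like gene, and unc80, a partner of the NALCN-type leak channel, were higher in RIP than in Input in all 3 genotypes. NaCP60E differed by 0.39 in Nab2-FLAG, 0.35 in Atx2-3xFLAG and 0.56 in control, and unc80 by 0.49, 0.66 and 0.56. These compare with 0.43, 0.49 and 0.41 for para. Of 7 calcium channel subunits and relatives, Ca-alpha1T, the T-type channel, and Rbp, the RIM-binding protein of the active zone that binds cac, were higher in RIP in all 3 genotypes. Ca-alpha1T differed by 0.44, 0.39 and 0.43 and Rbp by 0.53, 0.51 and 0.65 in Nab2-FLAG, Atx2-3xFLAG and control. In that order of genotypes, 2, 3 and 2 of 8 sodium list genes and 3, 3 and 2 of 7 calcium list genes were higher in RIP. Over all genes the shares were 3.42%, 4% and 3.01%. Against control, Ca-beta, the auxiliary beta subunit, was higher in Atx2-3xFLAG RIP (0.48, edgeR adjusted p = 0.0157), the single call of that list there. In Input, NaCP60E was higher in Atx2-3xFLAG (0.41, edgeR adjusted p = 0.0314), the single call of the sodium list against control in that pool. In RIP 1 of 8 genes of the sodium list was higher in Atx2-3xFLAG than in control (13.5% of all genes). Between the tagged genotypes, 1 of 8 was lower in Nab2-FLAG RIP (2.08% of all genes). Of the calcium list, 1 of 7 was lower in Nab2-FLAG than in Atx2-3xFLAG Input, as were 103 of all 6147 genes.

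Among the 6 tested potassium channel partners, 2 were higher and 1 was lower in Atx2-3xFLAG Input, and 3 were higher and 1 was lower in Atx2-3xFLAG RIP, where 8.95% (Input) and 13.5% (RIP) of all genes were higher. Of all 6147 genes, 466 were lower in Input and 633 in RIP. In Nab2-FLAG 0 of 6 were called against control in either pool, and the tagged genotypes set directly against each other also gave 0 of 6 in both pools. Hk, the beta subunit of the Shaker channel, averaged 223 ± 14.3 CPM in Atx2-3xFLAG Input and 166 ± 18.1 CPM in control Input (SD, n = 4 each). Its log2 difference was 0.42 in Input and 0.42 in RIP (edgeR adjusted p = 0.0111 and 0.00576), beside 0.65 and 0.50 for Sh. The gene qvr, whose product sleepless binds and modulates the Shaker channel, was higher by 0.38 in Input and 0.37 in RIP (edgeR adjusted p = 0.00911 and 0.0083). Slob, which binds the slo channel, averaged 338 ± 14.8 CPM in Atx2-3xFLAG Input and 490 ± 104 CPM in control Input (SD, n = 4 each). It was lower in both pools, with a log2 difference of -0.54 in Input and -0.56 in RIP (edgeR adjusted p = 0.000871 and 3.79e-05), while slo itself differed by 0.18 and 0.16 without passing.

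Of 8 tested potassium channel genes outside the 10, the inward rectifier gene Irk2 was higher than control in both tagged genotypes and both pools. Its log2 difference was 0.58 in Nab2-FLAG Input, 0.45 in Atx2-3xFLAG Input, 0.66 in Nab2-FLAG RIP and 0.71 in Atx2-3xFLAG RIP. Irk2 was lower in RIP than in Input in all 3 genotypes, with a log2 difference of -0.51 in Nab2-FLAG, -0.39 in Atx2-3xFLAG and -0.65 in control. SK, the small-conductance calcium-activated channel, was lower in Nab2-FLAG than in control Input (-0.45, edgeR adjusted p = 0.00504) and lower than in Atx2-3xFLAG in both pools (-0.40 in Input and -0.38 in RIP). Ork1, a potassium leak channel, was lower in Atx2-3xFLAG RIP than in control RIP (-0.78, edgeR adjusted p = 0.0126). Of 7 tested RNA regulators of channel transcripts, fne, an ELAV-family gene, was higher in Atx2-3xFLAG by 0.93 in Input and 1.05 in RIP (edgeR adjusted p = 3.03e-05 and 5.55e-07). Adar, whose enzyme edits channel mRNAs in fly neurons, was higher by 0.50 in Atx2-3xFLAG Input, 0.62 in Nab2-FLAG RIP and 0.64 in Atx2-3xFLAG RIP. The translational repressor pum, which acts on para in fly neurons, differed between RIP and Input by 0.29 in Nab2-FLAG, 0.35 in Atx2-3xFLAG and 0.34 in control (edgeR adjusted p = 0.0893, 0.0173 and 0.0565), and its associations were -0.04 with Nab2-FLAG and 0.01 with Atx2-3xFLAG. No gene of the regulator list passed in either association.

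The RIP-to-Input ratios of the 10 channel genes did not all move together over the lysates. Their levels did shift mostly in 1 direction in control lysates 3 and 4, as given above, and in several tagged libraries. In Atx2-3xFLAG, 9 of 10 lay below the group mean in RIP of lysate 3, RIP of lysate 4 and Input of lysate 3. Only 1 of 10 did in Atx2-3xFLAG Input of lysates 1 and 4. The neuron markers deviated in those 5 libraries by medians of -0.13, -0.10, -0.15, 0.14 and 0.19. In Nab2-FLAG Input of lysate 2, 8 of 10 channel genes lay below, with a median deviation of -0.08. Over the 12 lysates, the log2 RIP-to-Input ratios of pairs of channel genes correlated from -0.57 (eag with Ih) to 0.72 (Shal with Shaw), a description of lysates that share depth and genotype. KCNQ, Shaw and Shal had as few as 4, 5 and 6 counts in a library. The part of counting noise in these correlations was not tested. In Input, levels of para correlated with those of Shab at 0.88 and with those of Sh at 0.81, whereas KCNQ correlated with Shal at -0.53. The mean ratio over the 10 genes ran from 0.12 to 0.38 in Nab2-FLAG lysates, from 0.07 to 0.41 in Atx2-3xFLAG lysates and from 0.03 to 0.32 in control lysates. The lowest values were those of control lysate 3 and Atx2-3xFLAG lysate 4. The 5 other tested genes whose ratios followed this mean most closely over the 12 lysates were unc80 (r = 0.868), Cngl (0.844), Csp (0.832), CG8008 (0.83) and Esyt2 (0.819), where the median gene had r = 0.0444. These 5 were picked as the highest correlations among all other tested genes, over 12 lysates only. Whether they exceed what such a search gives by chance was not tested.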

How the data were processed

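RNA from anti-FLAG immunoprecipitates and Input of 12 fly head lysates was sequenced as rRNA-depleted stranded libraries, per the labels' protocols. The submitters' processing notes name STAR 2.6.0b-1, featureCounts 1.6.3, DESeq2 2.11.40.2 and the build BDGP6. The deposited counts are raw read counts per gene, 1 table a library, per the file headers. The authors' deposited table gives, per its headers, a ratio of mean percent input over control and p-values of Dunnett's test. Another 24 columns of per-sample values in it were not used.

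The statistics used edgeR 4.0.16 in R 4.3.3: filterByExpr by group, TMM factors, robust quasi-likelihood fits and two-sided tests, with adjusted p by Benjamini-Hochberg over 6147 genes and a threshold of 0.05. RIP-to-Input differences and associations came from 1 fit on 24 libraries with a term per lysate. The labels pair RIP and Input by lysate. In 10 of 12 lysates the paired deviations from group means correlated above 0.1, at a median of 0.181. Genotypes were compared within each pool without a block. Ratios per lysate used log2 CPM with a prior count of 2. Intervals are 95% intervals. The procedure was tested on simulated data. Alternatives were DESeq2 1.42.0, other scalings and filters, the block, and leaving out lysates.

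The labels call the 4 lysates of a genotype biological replicates. In all 36 pairs of replicate libraries the counts differed beyond sampling noise (chi-square per degree of freedom 1.41 to 6.72). The channel genes, the related lists and the markers were chosen with earlier results of these data known. All channel genes were named in every comparison, and of each related list at most 4 genes past the threshold, with the smallest adjusted p. KCNE, on the list of partners, was not matched. Gene spans are from RefSeq. Sequences and transcript lengths were not used here.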

Additional observations from a re-analysis of the deposited data

Results flagged for a closer look

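Among the 4 lysates of a group, a value that stood far from the other 3 was looked for in 90 groups of channel gene values, where chance gives about 1 in 20, and 10 were found. In RIP-to-Input log2 ratios, para had -0.11 in Nab2-FLAG lysate 3 beside 0.50 to 0.57 in the others, Shab had 0.16 in control lysate 3 beside 0.71 to 0.81, and slo had 0.25 in Nab2-FLAG lysate 1 beside 0.09 to 0.11. The para and Shab values belong to the shallowest RIP library of their genotype. In CPM, Shaw had 68.6 in Atx2-3xFLAG RIP of lysate 1 (others 40.3 to 43.3), 42.4 in Nab2-FLAG Input of lysate 4 (others 25.1 to 27.2) and 20.1 in control Input of lysate 2 (others 27.1 to 27.4), on 57, 21 and 13 counts. Shal had 58.5 CPM in Nab2-FLAG Input of lysate 4 (others 45.0 to 47.3), on 29 counts. The slo level was lowest in lysate 3 of both tagged Inputs, 158 CPM in Nab2-FLAG (others 188 to 194) and 168 CPM in Atx2-3xFLAG (others 198 to 202). Ih had 328 CPM in Atx2-3xFLAG Input of lysate 4, beside 357 in each of the others.

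Ih differed between the tagged genotypes in RIP, where its log2 difference of Nab2-FLAG minus Atx2-3xFLAG was -0.33 (edgeR adjusted p = 0.0382).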

How the results depend on the processing

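Over 168 recounts of called channel genes, 119 stayed within 1.5 times the count reported and 49 did not. The 119 include recounts where 0 calls stayed 0. None of 1675 recomputed log2 differences of single channel genes turned a called direction. Of the 1675, 60 lost a call, 33 gained a call and 120 changed sign without a call in either setting. The associations kept 0 calls in every setting. RIP against Input (2 calls in Nab2-FLAG, 5 in Atx2-3xFLAG, 3 in control) moved most. With library size as the only scaling these became 8, 9 and 8, and over all genes the split of higher and lower calls went to 1787 and 22 in Nab2-FLAG (210 and 271 under TMM), 2066 and 25 in Atx2-3xFLAG (246 and 231) and 1931 and 45 in control (185 and 272). The channel genes' median above that of all genes was 0.29, 0.31 and 0.18 in that setting and 0.29, 0.30 and 0.18 under TMM. Without the replicate block, the lysate term, the calls were 0, 1 and 1. DESeq2 called 3 in Atx2-3xFLAG, where Shaw got no adjusted p.

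Replicate numbers shared between genotypes gave a mixed picture. They were not taken as pairs, since the labels do not say that they mark a shared batch. The correlation of deviations was above 0.1 in 7 of 12 pairs in Input (-0.0446 to 0.45), with 2 of 4 numbers above 0.1 in all genotype pairs. In RIP it was in 4 of 12 (-0.025 to 0.29). The best match in another genotype had the same number in 12 of 24 cases in Input and 13 of 24 in RIP. Each case had 4 candidates, 1 of them with the same number, so matches were more frequent than 1 in 4. The comparisons within a pool leave out any batch that these numbers may mark, and its part was not tested. A replicate block over these numbers gave 1 call in Nab2-FLAG RIP against Input and 1 (eag) in Nab2-FLAG against Atx2-3xFLAG Input, and moved Nab2-FLAG association calls over all genes to 48, against 6 without it.

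Nab2-FLAG against control in Input (1 call, Sh) had 0 calls with RLE scaling, with DESeq2, without both shallowest lysates and with TMM within the pool, a setting chosen after seeing the data. In RIP (1 call, Sh) it had 0 with DESeq2 and without both shallowest lysates. Atx2-3xFLAG against control had 5 calls in Input and 5 in RIP with library size only (2 and 3 reported), and 1 in Input without both shallowest lysates. All-gene splits under library size were 663 and 107 in Nab2-FLAG Input (452 and 295 under TMM), 1043 and 169 in Atx2-3xFLAG Input (550 and 466), 979 and 270 in Nab2-FLAG RIP (684 and 527) and 1338 and 297 in Atx2-3xFLAG RIP (831 and 633). Nab2-FLAG against Atx2-3xFLAG in RIP (1 call, Ih) had 2 with no filter, 2 without both shallowest lysates and 0 with TMM within the pool.

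Leaving out 1 lysate at a time gave 0 to 2 calls in Nab2-FLAG, 2 to 6 in Atx2-3xFLAG and 1 to 3 in control for RIP against Input. It gave 0 to 1 (Nab2-FLAG) and 1 to 3 (Atx2-3xFLAG) against control in Input, 0 to 1 for Nab2-FLAG against control in RIP, and 0 to 1 in Input and 0 to 2 in RIP between the tagged genotypes. The cause of these shifts was not tested. The values of KCNQ rest on 4 to 40 counts a library.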
